A study of Mus musculus with 10 samples.

Results

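IL-12, IL-18 and IL-27 are cytokines that link antigen-presenting cells to T cells and NK cells. Their axis was followed here through 10 genes, of 33585 measured: the ligand genes Il12a, Il12b, Il18, Il27 and Ebi3, and the receptor genes Il12rb1, Il12rb2, Il18r1, Il18rap and Il27ra. The genes were taken by symbol from a list of names, and no measured value entered that rule. The data were RNA-seq of tumor-draining lymph nodes (TDLNs) from female BALB/c mice aged 6 weeks that carried 4T1 tumors, a transplanted mouse mammary carcinoma line. All tumors received microwave ablation (MWA) on day 10. In the MWA+2DG group, 2-deoxy-D-glucose (2DG), a glucose analogue that blocks glycolysis, was injected intraperitoneally at 500 mg/kg every 2 days from day 10, and the MWA group received PBS, per the study's methods. Nodes were taken on day 15, with 5 libraries a group. No group without ablation or without a tumor was analysed here, so each value compares 2DG with PBS after ablation. The deposited values are FPKM, fragments per kilobase of transcript scaled to the mapped fragments of a library, so read counts and the depth of each library cannot be known from them.

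IL-12 is a dimer of the Il12a and Il12b products, IL-27 is a dimer of the Il27 and Ebi3 products, and the Il12a and Ebi3 products pair as IL-35. IL-12 signals through Il12rb1 and Il12rb2 to STAT4, IL-27 signals through Il27ra and the shared chain Il6st to the STAT pathway, and IL-18 signals through Il18r1 and Il18rap to MyD88. IL-18 is made as a precursor that inflammasome caspases cut, and the decoy Il18bp binds the mature form. In lymph nodes dendritic cells and macrophages are known sources of the ligands, and IL-12 and IL-18 together drive interferon-γ in T cells and NK cells.

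Of the 10 genes, Il18 alone differed by the rule of the study's methods, an unadjusted P below 0.05 with a log2 fold change beyond 0.25. Il18 was lower in the MWA+2DG nodes. The other 4 ligand genes and all 5 receptor genes did not pass that rule, and each had a log2 fold change above 0, which turned below 0 for Il27, Il12rb1 and Il12rb2 with some single nodes left out. After Benjamini-Hochberg adjustment of the limma P over the 13334 genes tested, 0 genes passed 0.05, with limma-trend also, so the Il18 difference does not hold over the whole table. Before adjustment 567 genes, 4.25% of those tested, had a P below 0.05. By the study's rule 376 genes (2.82%) were called, of which 249 were lower (1.87% of those tested) and 127 higher (0.952%). Those counts leaned the other way, 328 higher and 159 lower, once each library was rescaled to the same total. They also did so without MWA+2DG replicate 5 (222 higher, 177 lower), and without both it and MWA replicate 4 (202 higher, 156 lower).

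The nodes carried the markers of lymph node cells. Summed FPKM of 7 B cell markers was 1210 to 1560 over the 10 libraries, that of 9 T cell markers 311 to 477, and no marker of the 16 lists was at 0 in every library. Markers of 5 liver genes summed to 22.0 to 27.2 in replicates 1 and 2 of both groups and to 69.2 to 162 in replicates 3 to 5, and the first principal component (36.4% of the variance) set these replicate sets apart. Each set held as many libraries of one group as of the other. MWA replicate 4 and MWA+2DG replicate 5 stood apart in Ifng, the interferon-γ gene, at 2.16 and 4.02 FPKM against 0.188 to 0.579 FPKM in the other 8 libraries. For the 10 genes, results that rest on these libraries are given with and without them. For the pathway lists such values are given for a few genes only. Neither the labels nor the methods say whether each library came from a separate mouse, so p-values measure the spread between these libraries, which may in part be technical. In bulk RNA, fewer cells of a type and less RNA per cell cannot be told apart.

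Il18 encodes the precursor of IL-18. Its promoter is shown because it was the gene that met the rule. The RefSeq table of the GRCm38.p6 build places 1 start site for it, and the window runs from 250 bases before to 50 after the start (chr9:50554450-50554749, + strand). Capitals mark the letters of the octamer ATGCAAAT, at -37 and on the other strand at -16, and of TATAAA, on the other strand at -175, counted from the start site to the first base of each match.
Il18 promoter: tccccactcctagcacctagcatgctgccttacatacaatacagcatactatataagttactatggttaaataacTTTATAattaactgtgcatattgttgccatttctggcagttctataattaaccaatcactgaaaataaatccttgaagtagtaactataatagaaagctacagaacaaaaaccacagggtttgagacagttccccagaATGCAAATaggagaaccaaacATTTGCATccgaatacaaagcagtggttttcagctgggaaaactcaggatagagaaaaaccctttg
The window was 36.7% G and C with 1 CpG, against medians of 52.7% and 7 CpGs over the 32851 promoters of the table. The octamer, on either strand, occurred in 1.74% of those promoters and TATAAA in 13.6%. The letters describe the window and say nothing of which factor binds it.

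Il18 was at 11.3, 13.1, 13.4, 10.5 and 19.1 FPKM in MWA replicates 1 to 5 and at 9.61, 9.74, 10.4, 12.4 and 8.94 FPKM in MWA+2DG replicates 1 to 5. Of the MWA+2DG nodes, 4 lay below every MWA node, and replicate 4 lay inside the MWA range, so the groups overlap. The mean fell from 13.5 ± 3.34 (SD, n = 5) to 10.2 ± 1.33 FPKM (SD, n = 5). The log2 fold change of FPKM + 1 was -0.35 (SE 0.14, 95% confidence interval -0.67 to -0.03, limma P = 0.0351, adjusted p = 0.995, two-sided exact permutation p = 0.0476). The difference had the same sign in the replicate sets, -0.31 in replicates 1 and 2 and -0.38 in replicates 3 to 5, and it was -0.38 without the 2 Ifng-rich libraries, where it still met the rule.

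The call depended on which nodes were included. MWA replicate 5 held the most Il18, and without it the difference was -0.22 and did not meet the rule. Nor was the gene called without MWA replicate 2 (-0.35) or 3 (-0.34), or without MWA+2DG replicate 1 (-0.33), 2 (-0.33), 3 (-0.36) or 5 (-0.31). It stayed called without MWA replicate 1 (-0.4), MWA replicate 4 (-0.42) or MWA+2DG replicate 4 (-0.41), and the sign was the same in all 10 cases.

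Macrophages and monocytes are a known source of Il18, and their markers are given beside it. Summed FPKM of the 11 listed markers ranged from 196 to 294 in the MWA group and from 175 to 238 in the MWA+2DG group. Of the 9 tested, 1 was lower by the rule, 1 had a fold change above 0 and the median log2 fold change was -0.12. Over the 10 nodes Il18 and the mean of these markers had a Pearson's r of 0.57 (permutation p = 0.0804, adjusted 0.174 over 13 relations) and a Spearman's rho of 0.62 (permutation p = 0.0596, adjusted 0.205). The r was 0.45 without MWA replicates 3 and 5, and 0.81 over the 6 nodes of replicates 3 to 5. MWA replicate 5 had both the most Il18 and the highest sum of macrophage markers. By the mean of log2(FPKM + 1), the measure behind the r, MWA replicate 2 was highest at 3.52, with MWA replicate 5 at 3.42. The migratory dendritic cell markers summed to 159 to 334 against 198 to 288 FPKM. Their mean, taken on log2(FPKM + 1) as for the other marker lists, had an r with Il18 of 0.08 (permutation p = 0.827, adjusted 0.896) and a rho of 0.05 (permutation p = 0.893, adjusted 0.918). Other lists with lower medians beside Il18 were cDC2 (-0.33, 1 of 4 tested markers lower, summed 37.7 to 45.7 against 35.5 to 46.7 FPKM) and neutrophils (-1.43, 2 of 3 lower, 12.1 to 95.8 against 1.91 to 17.1 FPKM). Plasma cell markers had a median of -0.43 (1 of 4 lower, 260 to 741 against 192 to 443 FPKM) and dividing cell markers one of -0.34 (4 of 6 lower, 100 to 139 against 68.2 to 111 FPKM). Medians were also below 0, with 0 markers called, for liver (-0.32), B cells (-0.12), NK cells (-0.08), stromal cells (-0.07) and endothelium (-0.01). The cDC1 markers had a median of 0.09 and 0 of 5 were called. No defining marker of these lists was at 0 in every library. The part of cell numbers in the Il18 difference was not tested.

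Il12a encodes the subunit of IL-12 that is particular to it among the IL-12 and IL-23 dimers. It was at 5.16, 7.1, 5.21, 4.7 and 4.78 FPKM in MWA replicates 1 to 5 and at 6.77, 6.36, 6.59, 4.74 and 5.5 FPKM in the MWA+2DG replicates. MWA replicate 2 held the highest value of all 10 nodes, and the other 4 MWA nodes were all below 4 of the MWA+2DG nodes. Il12a thus had a log2 fold change of 0.13 (SE 0.12, confidence interval -0.13 to 0.39, limma adjusted p = 0.995, exact permutation p = 0.333), which moved to 0.22 without MWA replicate 2.

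Il12b encodes the subunit that IL-12 shares with IL-23. Its mean was 0.999 FPKM, just under the filter of 1 FPKM, so its values come from the fit without a filter. It was at 1.1, 0.537, 1.1, 1.27 and 0.567 FPKM in the MWA nodes and at 1.24, 0.807, 1.1, 1.08 and 1.18 FPKM in the MWA+2DG nodes. MWA replicates 2 and 5 were the lowest, and the other 3 MWA nodes lay within the MWA+2DG range or just above it. Its log2 fold change was 0.14 (SE 0.12, confidence interval -0.14 to 0.41, limma adjusted p = 0.99, exact permutation p = 0.333) and fell to 0.06 without MWA replicate 2. On this length-adjusted scale Il12a exceeded Il12b in all 10 nodes, with a ratio of 3.7 to 13.2 in the MWA group and of 4.41 to 7.88 in the MWA+2DG group.

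Il27 and Ebi3 encode the subunits of IL-27. Il27, again under the filter, was at 0.772, 0.546, 0.783, 1.27 and 0.766 FPKM in the MWA nodes and at 0.396, 0.693, 0.705, 0.565 and 2.72 FPKM in the MWA+2DG nodes. The highest value of each group came from its Ifng-rich node. The other 4 MWA+2DG nodes were all below 4 of the 5 MWA nodes. Il27 had a log2 fold change of 0.05 (SE 0.25, confidence interval -0.52 to 0.62, limma adjusted p = 0.997, exact permutation p = 0.952). The value turned to -0.19 once MWA+2DG replicate 5 was left out, to -0.01 without MWA replicate 2 and to -0.11 without both Ifng-rich nodes, so Il27 had no direction that held.

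Ebi3 was at 9.03, 7.62, 7.66, 4.23 and 7.94 FPKM in the MWA nodes and at 6.56, 7.15, 8.99, 10.3 and 8.73 FPKM in the MWA+2DG nodes. MWA replicate 4, with the most Il27 of its group, had the least Ebi3 of all 10. The log2 fold change of Ebi3 was 0.19 (SE 0.17, confidence interval -0.2 to 0.57, limma adjusted p = 0.995, exact permutation p = 0.413). It was -0.24 within replicates 1 and 2 and 0.48 within replicates 3 to 5. It was 0.03 without MWA replicate 4 and 0.01 without both Ifng-rich nodes. Across the 10 nodes no relation between partner subunits was detected. Il27 and Ebi3 had an r of -0.08 (permutation p = 0.788, adjusted 0.896) and a rho of 0.09 (permutation p = 0.811, adjusted 0.918), and 0.32 was the r without the 2 Ifng-rich nodes. Il12a and Il12b had an r of -0.22 (permutation p = 0.528, adjusted 0.763) and a rho of -0.21 (permutation p = 0.56, adjusted 0.728). Il12a and Ebi3, the subunits of IL-35, had an r of 0.04 (permutation p = 0.922, adjusted 0.922) and a rho of -0.21. Il12b and the migratory dendritic cell markers had an r of -0.26 (permutation p = 0.468, adjusted 0.761) and a rho of -0.25.

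**Figure D1:**
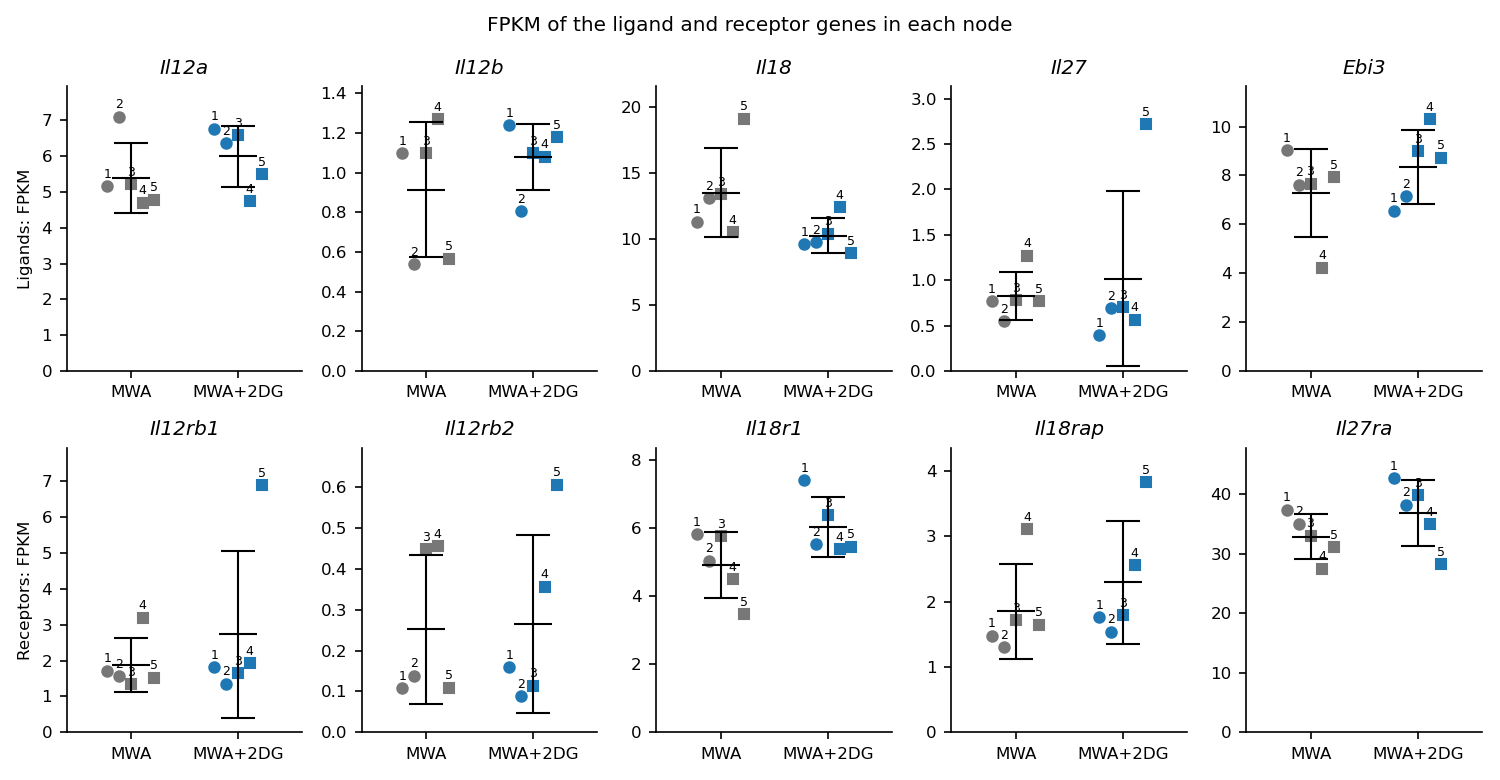
FPKM (y axis, linear from 0) of each ligand gene (upper row) and receptor gene (lower row) in the 5 MWA and 5 MWA+2DG nodes, with the replicate number beside each point, circles for replicates 1 and 2, squares for replicates 3 to 5, and bars for the mean ± SD. For Il18, 4 of 5 MWA+2DG points lie below every MWA point, and Il27, Il12rb1, Il12rb2 and Il18rap have their highest point in MWA+2DG replicate 5.

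Il18r1 encodes the chain of the IL-18 receptor that binds the cytokine. It was at 5.81, 5.04, 5.76, 4.49 and 3.46 FPKM in the MWA nodes and at 7.4, 5.53, 6.37, 5.37 and 5.45 FPKM in the MWA+2DG nodes. All 5 MWA+2DG nodes lay above the MWA median and 2 lay above every MWA node, while the other 3 lay inside the MWA range. The mean was 4.91 ± 0.977 FPKM (SD, n = 5) with MWA and 6.03 ± 0.868 FPKM (SD, n = 5) with MWA+2DG. Its log2 fold change was 0.26 (SE 0.13, confidence interval -0.03 to 0.54, limma P = 0.07, adjusted p = 0.995, exact permutation p = 0.0952), past the fold limit of the rule but not its P. Within the replicate sets it was 0.21 and 0.29. Il18r1 met the rule without MWA replicate 1 (0.31), without MWA replicate 3 (0.31) and under median ratio scaling (0.26), and was at 0.16, its lowest, without MWA replicate 5.

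Il18rap encodes the accessory chain that the IL-18 receptor needs to signal. It was at 1.48, 1.3, 1.72, 3.11 and 1.65 FPKM in the MWA nodes and at 1.76, 1.54, 1.79, 2.56 and 3.83 FPKM in the MWA+2DG nodes. The Ifng-rich nodes were the highest of their groups. For Il18rap the log2 fold change was 0.2 (SE 0.2, confidence interval -0.24 to 0.64, limma adjusted p = 0.995, exact permutation p = 0.389), 0.05 without MWA+2DG replicate 5, 0.34 without MWA replicate 4 and 0.19 without both.

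The receptor chains of IL-18 are neighbours on chromosome 1 in the RefSeq order, where they follow Il1r2, Il1r1, Il1rl2 and Il1rl1, and no relation between their levels was detected. The r between Il18r1 and Il18rap was -0.11 (permutation p = 0.762, adjusted 0.896) and the rho was -0.04 (permutation p = 0.918, adjusted 0.918). The level of Il18r1 was 1.42 to 4.21 times that of Il18rap, with the lowest ratios in MWA replicate 4 (1.44) and MWA+2DG replicate 5 (1.42). Of the 4 IL-1 receptor genes beside them 3 were tested and 0 were called, with Il1rl2 at 0.12 on the log2 scale (exact permutation p = 0.119), Il1r2 at -0.19 (p = 0.333) and Il1r1 at -0.08 (p = 0.548). The promoters of the 2 IL-18 receptor genes are printed to set these neighbours side by side, for the third of the 3 start sites listed for Il18r1 (chr1:40465756-40466055) and the start site of Il18rap (chr1:40515112-40515411), both on the + strand of GRCm38.p6. Capitals mark TTCNNNGAA, the letters of a STAT site, and GAGGAA, the core bound by PU.1, or its reverse complement TTCCTC.
Il18r1 promoter: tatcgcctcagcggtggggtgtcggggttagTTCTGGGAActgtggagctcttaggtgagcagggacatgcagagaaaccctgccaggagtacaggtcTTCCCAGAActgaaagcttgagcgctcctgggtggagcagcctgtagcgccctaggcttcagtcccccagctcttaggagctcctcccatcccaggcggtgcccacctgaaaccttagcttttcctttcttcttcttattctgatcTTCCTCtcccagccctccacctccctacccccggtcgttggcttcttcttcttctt
Il18rap promoter: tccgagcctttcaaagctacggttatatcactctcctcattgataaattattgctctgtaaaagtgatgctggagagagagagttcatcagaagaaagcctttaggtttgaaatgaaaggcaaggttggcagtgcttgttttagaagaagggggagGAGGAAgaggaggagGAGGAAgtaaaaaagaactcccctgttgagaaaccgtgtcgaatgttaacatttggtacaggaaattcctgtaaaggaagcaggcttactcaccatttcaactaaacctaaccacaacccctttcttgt
The printed Il18r1 window held TTCTGGGAA at -219, TTCCCAGAA at -152 and TTCCTC at -6. The windows of the other 2 Il18r1 start sites held neither TTCNNNGAA nor GAGGAA on either strand. The Il18rap window held GAGGAA at -94 and -79 and no TTCNNNGAA. Of all promoters in the table, 8.3% held TTCNNNGAA and 28.3% GAGGAA on either strand. Of the 10 genes 7 had a promoter entry, and TTCNNNGAA was also in the Il12rb2 window, as TTCTCAGAA at -123. The Il12b window (chr11:44399813-44400112) held GAGGAA at -143, TTCCTC at -219 and AATTCCC, the reverse complement of part of an NF-κB site (3.51% of promoters), at -129. GAAA followed after 2 bases by GAAA, the letters of an interferon regulatory factor site, was found on either strand in 3.44% of promoters and in none of the 7 genes' windows. None of the matches overlapped another.

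Il12rb1 encodes the receptor chain shared by IL-12 and IL-23. It was at 1.72, 1.56, 1.34, 3.19 and 1.52 FPKM in the MWA nodes and at 1.82, 1.36, 1.65, 1.92 and 6.88 FPKM in the MWA+2DG nodes. The Ifng-rich node was the highest of each group, and the other 8 nodes lay between 1.34 and 1.92 FPKM. Il12rb1 had a log2 fold change of 0.25 (SE 0.31, confidence interval -0.43 to 0.92, limma adjusted p = 0.995, exact permutation p = 0.54), turned to -0.06 without MWA+2DG replicate 5, was 0.39 without MWA replicate 4 and was 0.08 without both.

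Il12rb2 encodes the chain that confers the response to IL-12 on activated T cells and NK cells. It was the lowest of the 10 genes, at 0.108, 0.139, 0.448, 0.455 and 0.109 FPKM in the MWA nodes and at 0.16, 0.0888, 0.114, 0.356 and 0.605 FPKM in the MWA+2DG nodes. Each group had nodes on both sides of the gap between 0.16 and 0.356 FPKM, and the 4 nodes above it were all from replicates 3 to 5. The log2 fold change in the fit without a filter was 0.01 (SE 0.13, confidence interval -0.29 to 0.31, limma adjusted p = 1, exact permutation p = 0.937). The sign turned, to between -0.03 and -0.02, without MWA replicate 1, 2 or 5 or MWA+2DG replicate 4. Leaving out MWA+2DG replicate 5 gave -0.08. Il12rb1 and Il12rb2 had an r of 0.73 (permutation p = 0.0125, adjusted 0.0542) and a rho of 0.58 (permutation p = 0.0902, adjusted 0.205). Without the 2 Ifng-rich nodes the r was -0.01, so the relation rests on them.

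Il27ra encodes the IL-27 receptor chain that is carried by most T cells, and it was the highest of the 10 genes. It was at 37.4, 35.0, 33.0, 27.5 and 31.1 FPKM in the MWA nodes and at 42.7, 38.2, 39.8, 34.9 and 28.2 FPKM in the MWA+2DG nodes. Of the MWA+2DG nodes 3 lay above every MWA node, and the Ifng-rich node was the lowest of each group. Its log2 fold change was 0.15 (SE 0.12, confidence interval -0.11 to 0.42, limma P = 0.221, adjusted p = 0.995, exact permutation p = 0.254), was 0.24 without MWA+2DG replicate 5 and was 0.18 without both Ifng-rich nodes.

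**Figure D2:**
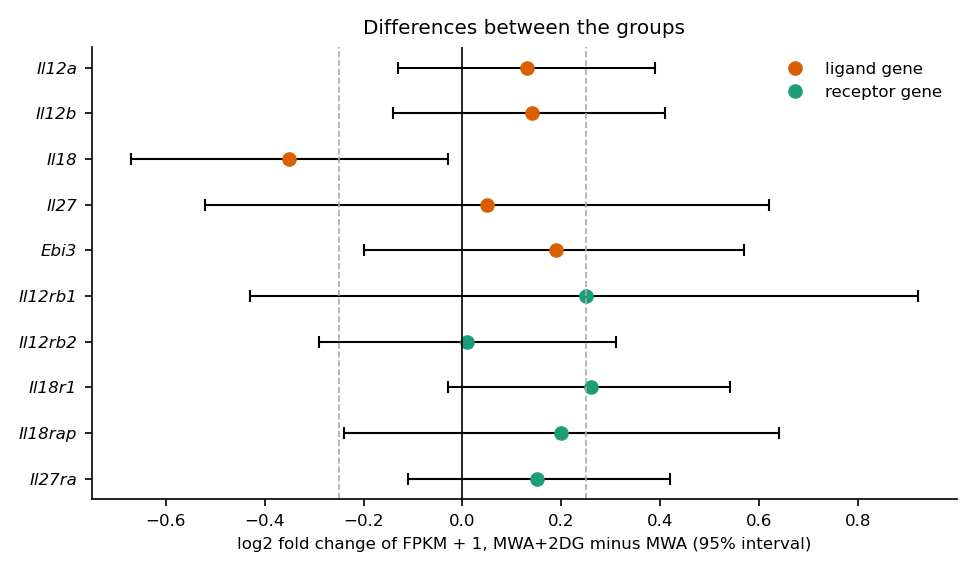
Log2 fold change of FPKM + 1, MWA+2DG minus MWA (x axis), with its 95% confidence interval, for the ligand genes (orange) and receptor genes (green), with dashed lines at the fold limits of the rule. The interval of Il18 (-0.67 to -0.03) lies below 0, and those of the other 9 genes span it.

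Taken by role, 3 ligand genes and 4 receptor genes passed the filter on low values and were tested. Of the tested ligand genes 1 was lower and 0 were higher, and their median log2 fold change was 0.13. That median was 0.03 without MWA replicate 4, 0.21 without MWA replicate 2 and 0.01 without both Ifng-rich nodes. Of the tested receptor genes 0 were called in either direction, all 4 had a fold change above 0 (Il12rb1 was at -0.06 with MWA+2DG replicate 5 alone left out) and the median was 0.22. Over all 13334 genes the rule called 2.82%, with 1.87% lower and 0.952% higher. The median over those genes was 0.007, and 52.6% had a fold change above 0. No gene of the 10 had groups that did not overlap, against 0.802% of the genes tested.

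The Ifng-rich nodes set most of the spread of Il12rb1, Il27 and Il18rap. MWA replicate 4 and MWA+2DG replicate 5 were first in their groups in all 3 genes, while both were lowest in their groups for Il18 and Il27ra. The same 2 nodes were the highest of their groups in Irf1 (69.6 and 119 FPKM), Socs1 (14.5 and 31.2 FPKM), Cd274 (13.1 and 25.5 FPKM) and Gzmb (27.9 and 54.2 FPKM), as in Ifng, and these genes were picked after their values were seen. Ifng is the gene that IL-12 and IL-18 are best known to induce. The 2 nodes were also the highest of their groups in NK cell markers, at a summed 82.5 and 121 FPKM against 20.4 to 64.6 FPKM in the rest. MWA+2DG replicate 5 also had the highest sums of adipose markers (32.8 FPKM, next 19.6) and of epithelial and tumour cell markers (11.7 FPKM, next 5.92). Its sum of dividing cell markers, 68.2 FPKM, was the lowest. The part of NK cells or of these other cells in the levels of the member genes was not tested.

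**Figure D3:**
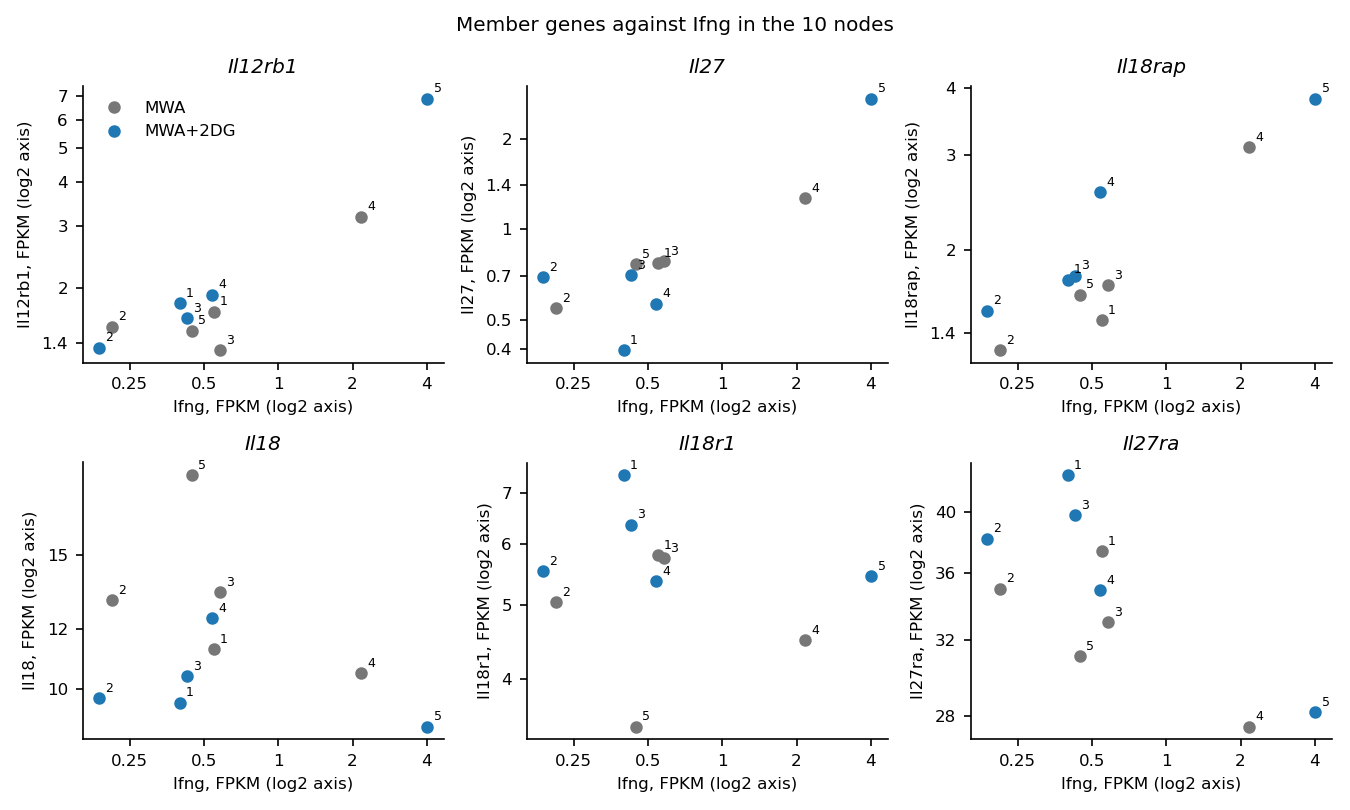
FPKM of 6 of the genes (y axes, log2 scale) against FPKM of Ifng (x axes, log2 scale) in the 5 MWA (grey) and 5 MWA+2DG (blue) nodes, numbered by replicate. The nodes at 2.16 and 4.02 FPKM of Ifng are the highest of their groups in Il12rb1, Il27 and Il18rap and the lowest in Il18 and Il27ra.

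Receptor levels were set beside the cells known to carry them. Il27ra followed the T cell markers, with an r of 0.85 (permutation p = 0.00288, adjusted 0.0322 over 13 relations) and a rho of 0.83 (permutation p = 0.00464, adjusted 0.0603). The r was 0.76 without the 2 Ifng-rich nodes and 0.77 over replicates 3 to 5. All 9 T cell markers had a fold change above 0 and 1 was higher by the rule, with a median of 0.18 beside the 0.15 of Il27ra. Whether T cell numbers had a part in the Il27ra difference was not tested. Il18r1 and the T cell markers had an r of 0.49 (permutation p = 0.154, adjusted 0.286) and a rho of 0.58 (permutation p = 0.0895, adjusted 0.205). Il18rap and the NK cell markers had an r of 0.84 (permutation p = 0.00496, adjusted 0.0322) and a rho of 0.48 (permutation p = 0.166, adjusted 0.308), and the r was 0.41 without the 2 Ifng-rich nodes, on which the relation therefore rests. Il12rb2 and the NK cell markers had an r of 0.73 (permutation p = 0.0171, adjusted 0.0556) and a rho of 0.56 (permutation p = 0.0944, adjusted 0.205), and the r was 0.27 without those nodes. Il27ra and its partner Il6st had an r of 0.68 (permutation p = 0.0329, adjusted 0.0855) and a rho of 0.65 (permutation p = 0.0489, adjusted 0.205). That r was 0.72 without those nodes and 0.23 over replicates 3 to 5.

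By mean FPKM over the 10 nodes the order was Il27ra (34.8), Il18 (11.9), Ebi3 (7.82), Il12a (5.69), Il18r1 (5.47), Il12rb1 (2.3), Il18rap (2.07), Il12b (0.999), Il27 (0.922) and Il12rb2 (0.258). Il27ra stood at the 95.5th percentile of the genes above 0 in any library, and Il12rb2 at the 46.8th. Only Il27ra and Il18, and Il18rap and Il12b, were neighbours in that order whose ranges did not overlap. Il12a exceeded Il18r1 in 6 of 10 nodes, Il12b exceeded Il27 in 6 and Il12rb1 exceeded Il18rap in 5, so those neighbours could not be ordered.

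Downstream of the IL-12 and IL-27 receptors, Stat4, the transcription factor through which IL-12 acts, was called higher with 2DG by the study's rule. Over all genes tested that rule called 2.82%, and 0.952% as higher. Stat4 was at 11.3, 9.35, 9.33, 10.7 and 9.12 FPKM in the MWA nodes and at 14.5, 11.2, 11.1, 12.1 and 13.5 FPKM in the MWA+2DG nodes. All 5 MWA+2DG nodes lay above the MWA median and 3 above every MWA node. The log2 fold change was 0.29 (SE 0.09, limma P = 0.00935, adjusted p = 0.995, exact permutation p = 0.0238) and between 0.24 and 0.34 with any 1 node left out. All 7 genes counted in the JAK and STAT list were tested and all 7 had a fold change above 0, with a median of 0.08. Of all genes tested 52.6% were above 0, and Tyk2 was at -0.01 without MWA replicate 5. Stat4 was the 1 gene called, and Jak2 (0.15, exact permutation p = 0.135) and Socs3 (0.21, p = 0.444) came next by limma P. Without MWA+2DG replicate 5 Socs3 was at 0.04, and Socs1, at 0.06 over all nodes, was at -0.34. Without both Ifng-rich nodes Socs3 was at 0.13 and Socs1 at -0.19. Stat4 is also carried by T cells at large, whose markers had a median of 0.18. The part of T cell numbers in the Stat4 difference was not tested.

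No other pathway list held a called gene. Among the other IL-12 family genes 2 of 6 were tested, with Il6ra, a receptor chain for IL-6, at 0.23 on the log2 scale (exact permutation p = 0.0317), short of the fold limit, and Il6st at 0.12 (p = 0.571). All 7 IL-18 receptor signalling genes were tested and all 7 had a fold change above 0, against 52.6% of all genes tested. Their median was 0.07, and Irak3 (0.11, exact permutation p = 0.103), Irak2 (0.09, p = 0.214) and Myd88 (0.10, p = 0.579) came first by limma P. Myd88 was at -0.01 without MWA+2DG replicate 5. Without MWA replicate 5 Traf6 was at -0.01 and Map3k7 at -0.03. Of 9 genes for the maturation and restraint of IL-18 8 were tested, with a median of 0.05. Sigirr, a brake on this receptor family, was at 0.17 (exact permutation p = 0.0635), Gsdmd, the pore through which IL-18 leaves cells, at 0.10 (p = 0.532) and the caspase gene Casp4 at 0.16 (p = 0.643). Casp4 turned to -0.08 without MWA+2DG replicate 5 and was at 0.04 without both Ifng-rich nodes.

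Il18bp encodes the soluble decoy for IL-18, and it was at 7.84 to 11.4 FPKM in the MWA nodes and 6.89 to 15.2 FPKM in the MWA+2DG nodes, and the difference in log2 was 0.05 (exact permutation p = 0.825). Casp1, the protease that cuts the IL-18 precursor, was at 12.6 ± 1.14 and 12.3 ± 2.0 FPKM (SD, n = 5 each), and the difference in log2 was -0.03 (exact permutation p = 0.794). These 2 genes were named after their values were seen, for their roles. The ratio of Il18 to Il18bp was 1.45, 1.65, 1.4, 0.924 and 1.76 in the MWA nodes and 1.4, 1.21, 1.21, 1.05 and 0.587 in the MWA+2DG nodes, with the least in the Ifng-rich node of each group.

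The 9 transcription factors known to drive the ligand genes were all tested and 0 were called, with a median of -0.02. Rela (0.08, exact permutation p = 0.151), Nfkb1 (0.07, p = 0.222) and Irf1 (0.2, p = 0.595) had the smallest limma P. Irf1 turned to -0.05 without MWA+2DG replicate 5 and was at 0.06 without both Ifng-rich nodes. Of 11 target genes of IL-12 and IL-18, 10 were tested and 0 called, with a median of 0.07. Furin, a protease induced through STAT4, was at 0.19 (exact permutation p = 0.0238), short of the fold limit, the chemokine receptor gene Cxcr3 at 0.29 (p = 0.167) and Gadd45b at -0.11 (p = 0.222). Of 7 target genes of IL-27, 6 were tested and 0 called, with a median of 0.01. Prdm1, a repressor that IL-27 can induce, was at -0.21 (exact permutation p = 0.0952), the checkpoint genes Havcr2 at 0.11 (p = 0.365) and Cd274 at 0.23 (p = 0.659). Cd274 turned to -0.11 without MWA+2DG replicate 5 and was at 0.06 without both Ifng-rich nodes.

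**Figure D4:**
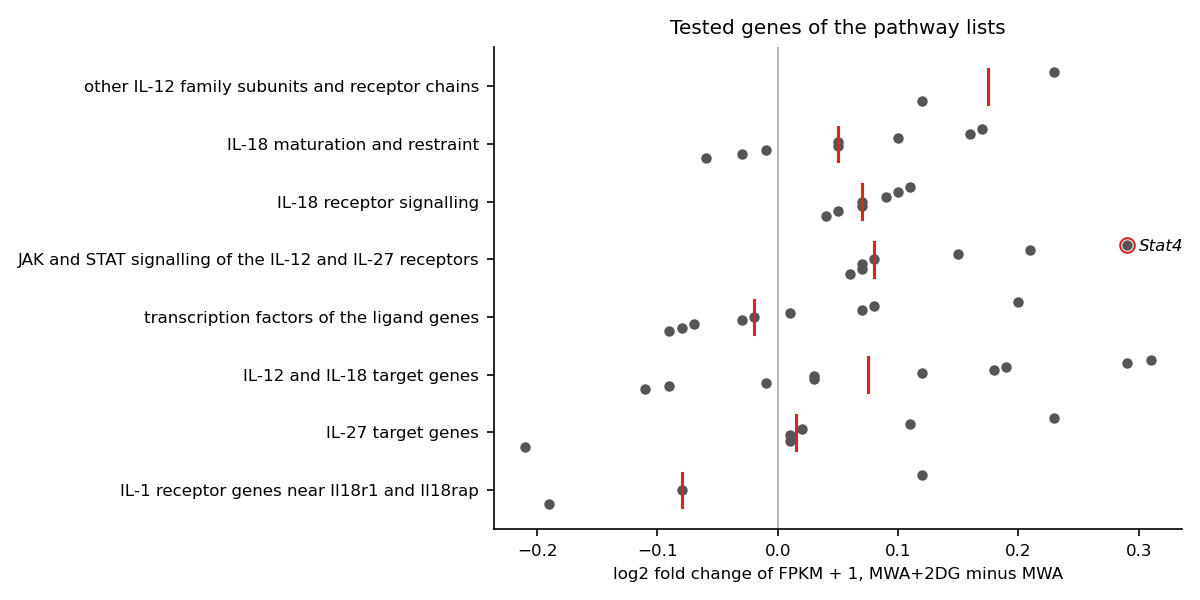
Log2 fold change of FPKM + 1, MWA+2DG minus MWA (x axis), of every tested gene (points) in 8 lists of genes around the axis (rows), with the median of each list as a red line. Stat4, ringed, is the 1 gene that met the rule, at 0.29. The rule called 2.82% of all genes tested.

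**Figure D5:**
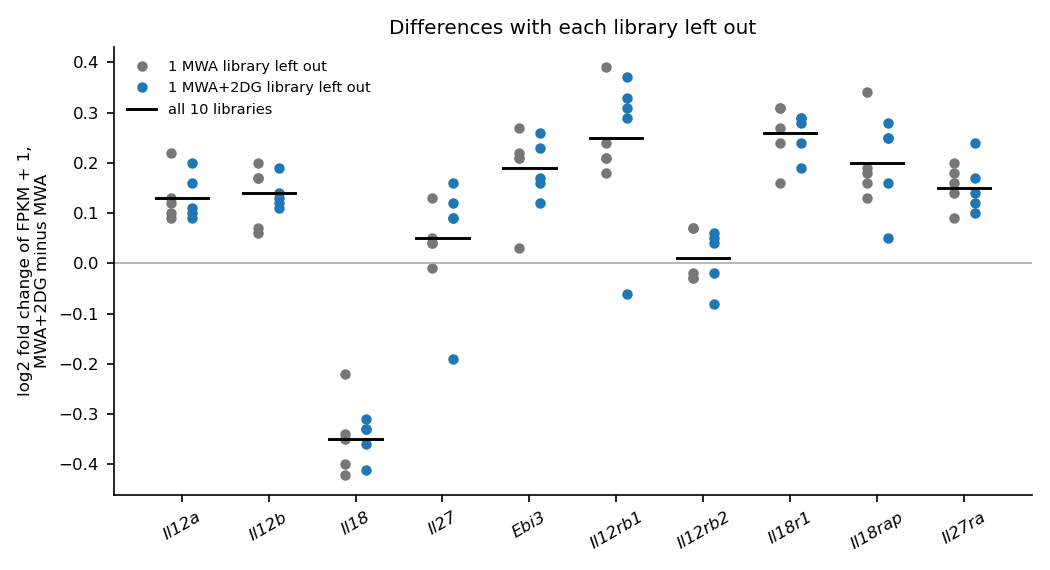
Log2 fold change of FPKM + 1, MWA+2DG minus MWA (y axis), of each gene with 1 MWA library (grey) or 1 MWA+2DG library (blue) left out, and with all 10 libraries (black bar). Il18 stays between -0.42 and -0.22, Il18r1 between 0.16 and 0.31, and Il27, Il12rb1 and Il12rb2 cross 0.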

How the data were processed

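TDLN RNA was measured by RNA-seq in 5 MWA and 5 MWA+2DG libraries, grouped by the treatment label. FPKM values per gene were deposited by the authors, from StringTie and ballgown after fastp and HISAT2 in the study's methods. The submitters' processing notes name cutadapt 1.9, HISAT2 2.0.4, UMI-tools, StringTie 1.3.4d and the build mm9, and name no annotation, which is not given here. The kit marks strand, and whether the counting used it is not stated, so Ebi3, Il12rb2, Il27 and Il27ra, which overlap genes on the other strand, carry that doubt. FPKM divides by length and mapped reads, so depth is unknown and no count test was run.

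Symbols matched 33541 of 33643 identifiers, and 57 shared symbols were summed. Log2(FPKM + 1), which understates changes of low genes, was fitted with limma 3.58.1 (R 4.3.3) without covariates over 13334 genes whose mean reached 1 FPKM, and Il12b, Il27 and Il12rb2 were taken from a fit without the filter. P-values carry Benjamini-Hochberg adjustment over the fit. Exact permutation tests are two-sided with 0.00794 as the smallest p. Correlations used 100000 resamples, with scipy 1.17.1 for the ranks. On simulated data with independent libraries, 174 of 200 genes with a log2 fold change of 1 were recovered among 13334, with 7 false calls. Smaller differences, such as those of the 10 members, were not simulated. No pair of libraries shared more than 0.000163 of its nonzero values. Named genes were all 10 members, and the 3 of smallest P and any called gene of each pathway list. Other genes with printed values were picked after those were seen. The members and lists were chosen with earlier results of these data known. RefSeq windows (GRCm38.p6) were used for sequence only. Results of some listed genes are not reported here or counted in the lists.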

Additional observations from a re-analysis of the deposited data

Results flagged for a closer look

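In 5 of the 20 groups of values (10 genes in 2 groups of 5 nodes) the highest node lay far from its nearest neighbour for its group's range by Dixon's ratio, a distance that chance gives in about 1 in 20 groups. Il12rb1 was at 3.19 FPKM in MWA replicate 4, where the next node was at 1.72, and at 6.88 FPKM in MWA+2DG replicate 5, where the next was at 1.92. Il27 was at 2.72 FPKM in MWA+2DG replicate 5, where the next was at 0.705. Il18rap was at 3.11 FPKM in MWA replicate 4, where the next was at 1.72. These 4 values came from the 2 nodes with the most Ifng. The remaining value was Il12a at 7.1 FPKM in MWA replicate 2, where the next was at 5.21.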

How the results depend on the processing

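The call of Il18 as lower was lost under the replicate block (0 ligand genes called), where Il18r1 met the rule (1 receptor gene called) and 164 genes were higher and 285 lower. The numbers did not pair the nodes: deviations of same-numbered nodes correlated at 0.331, 0.501, 0.11, 0.0334 and 0.151, and not every node correlated best with its own number. Median ratio scaling gave 1 receptor gene called, Il18r1. Rescaling to a common total gave 328 genes higher and 159 lower, and moved the median of all genes to 0.0682. Leaving out each node in turn gave 80 to 222 genes higher, 177 to 315 lower, 0 to 1 ligand genes and 0 to 1 receptor genes called. The count of higher genes moved most without MWA replicate 1 (200) or 5 (80) or MWA+2DG replicate 1 (83) or 5 (222). Without MWA+2DG replicate 5 the higher genes (222) outnumbered the lower (177), the reverse of the main fit. Leaving out both Ifng-rich nodes (MWA replicate 4 and MWA+2DG replicate 5), an alternative chosen after seeing the data, gave 202 higher and 156 lower. The sign turned with a node left out for Il12rb2 (range -0.08 to 0.07, at -0.03 without MWA replicate 1 or 5, -0.02 without MWA replicate 2 or MWA+2DG replicate 4, -0.08 if MWA+2DG replicate 5 was left out), for Il27 (-0.19 to 0.16, at -0.01 without MWA replicate 2) and for Il12rb1 (-0.06 to 0.39). Il27 at -0.19 and Il12rb1 at -0.06 were the values without MWA+2DG replicate 5. Without both Ifng-rich nodes Il12rb2 was at -0.02 and Il27 at -0.11. The causes were not tested. Of the values of single genes under alternatives, 165 kept their direction and side of the threshold, 8 lost and 4 gained a call, and 10 turned. FPKM gives no depth, so how far depth limits Il12rb2, Il27 and Il12b is unknown.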
